A study of Mus musculus with 6 samples.

Results

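The matrix metalloproteases (MMPs), the ADAMTS and ADAMTS-like proteins, the tolloids and the tissue inhibitors of metalloproteases (TIMPs) were followed in the submandibular gland of mice with and without ovaries. They were taken by gene symbol from the array table, as every gene named Mmp, Adamts, Adamtsl or Timp with a number, together with Bmp1, Tll1 and Tll2. The rule gave 51 of the 19505 genes measured, namely 21 MMPs, 18 ADAMTS proteases, 5 ADAMTS-like proteins, 3 tolloids and 4 TIMPs, each with 1 probe set. RNA came from BALB/c female mice that had sham surgery (Cont) or removal of both ovaries (OVX) at 6 weeks of age. The glands of 3 mice per group, aged 14 weeks and 8 weeks past surgery, were each hybridised to 1 Clariom S mouse array. The labels name no transgene. RNA of the whole tissue was measured, so fewer cells of a type and less RNA per cell cannot be told apart.

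These proteins are zinc-dependent endopeptidases of the extracellular space and the proteins that hold them in check. MMPs are made as inactive proenzymes and cleave collagens, laminins and other matrix proteins once their propeptide is removed, ADAMTS proteases cut large proteoglycans or the amino-terminal propeptides of fibrillar collagens, and tolloids remove the carboxy-terminal propeptides so that collagen fibrils can form. In salivary glands, remodelling of basement membrane and interstitial collagen by such enzymes accompanies branching, and TIMPs bind the active site of MMPs and of some ADAMTS proteases.

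The finding turns on Tll1, tolloid-like 1, so its upstream sequence is shown, followed by the stretches around the AP-1 site (TGACTCA, searched on both strands) in the MMP genes that share it. The sequences are those of RefSeq for build GRCm38.p6, printed on the strand of the gene, with the AP-1 match in capitals. TGAGTCA is the same site read on the other strand. The Tll1 sequence is the 250 bases before its start (chr8:64206009-64206258, minus strand, 43.2% G or C).
Tll1: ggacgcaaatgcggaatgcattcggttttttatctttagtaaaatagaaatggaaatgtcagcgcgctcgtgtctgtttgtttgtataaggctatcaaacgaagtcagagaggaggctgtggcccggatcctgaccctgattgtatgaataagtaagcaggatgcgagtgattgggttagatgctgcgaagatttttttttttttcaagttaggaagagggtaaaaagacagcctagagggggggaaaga
Mmp13, chr9:7272459-7272505, plus strand: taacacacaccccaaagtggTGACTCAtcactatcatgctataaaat
Mmp12, chr9:7347310-7347356, plus strand: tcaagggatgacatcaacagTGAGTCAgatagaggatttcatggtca
Mmp1b, chr9:7388093-7388139, minus strand: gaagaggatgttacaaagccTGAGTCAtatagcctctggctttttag
Mmp3, chr9:7445756-7445802, plus strand: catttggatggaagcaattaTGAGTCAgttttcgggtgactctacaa
Mmp1a, chr9:7464048-7464094, plus strand: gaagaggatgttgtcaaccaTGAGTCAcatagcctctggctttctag
Mmp10, chr9:7502259-7502305, plus strand: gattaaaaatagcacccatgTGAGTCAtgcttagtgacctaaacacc
Mmp7, chr9:7692007-7692053, plus strand: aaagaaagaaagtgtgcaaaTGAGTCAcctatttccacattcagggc

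A promoter entry was matched for 35 of the 51 genes, and 5 motifs were searched on both strands in the 250 bases before the start. The AP-1 site was found in 7 of the 35, against 5.16% of all 27025 genes with an entry, and all 7 lie in 1 run of MMP genes on chromosome 9. TATAAA was found in 10 of the 35 (14.3% of all genes), and AGGTCA, the core of the estrogen response element, in 5, which were Adamtsl5, Mmp10, Mmp12, Mmp1a and Mmp1b (15.8% of all genes). Neither the full palindromic estrogen response element, made of GGTCA, any 3 bases and its reverse complement (0.0666% of all genes, and able to overlap the core), nor the SMAD palindrome GTCTAGAC (0.2%) was found in any of the 35. The window before Tll1 held none of the 5. A match of letters is a description of the sequence and not a bound site.

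The arrays were alike in scale, with medians between 5.20 and 5.22 on the log2 scale, and correlated more closely within groups (0.982 to 0.989) than between them (0.971 to 0.979). The table has no detection calls. A background ceiling was therefore set on each array at the 95th percentile of 1091 olfactory receptor genes, which a gland is not known to use, and lay between 4.63 and 4.75. Of all genes, 6348 (32.5%) were at or under it on all 6 arrays. Of 1091 olfactory receptor genes, 30 were above it on all arrays. Of 7 measured Y-linked genes, which a female lacks, 6 were at or under it on all arrays. The other, Sry, was above it on all arrays, with 5.41 to 5.82 in Cont and 4.83 to 5.01 in OVX (limma adjusted p = 0.0197). A value somewhat above the ceiling therefore does not by itself show that a gene is expressed. Of markers of gland cells, 4 of 12 acinar genes fell in OVX at an adjusted p under 0.05, with a summed linear intensity of 27200 to 28800 in Cont and 22800 to 24200 in OVX. Markers of the granular convoluted tubule (6 of 7), other ducts (5 of 10), basal duct cells (5 of 7), myoepithelial and smooth muscle cells (5 of 7) and fibroblasts (4 of 8) rose at the same threshold, at which no gene of these 5 lists fell. At this threshold 2.57% of all genes rose and 1.07% fell.

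In OVX glands Tll1 fell, and most of the other genes lay within the spread between mice. Bmp1 rose, but passed the adjusted p in only 9 of 17 alternative settings. Differences were tested by limma with Benjamini-Hochberg adjustment over all named probe sets. At an adjusted p under 0.05, 2 of the 51 genes were higher in OVX (3.92%, against 2.57% of all genes) and 2 were lower (3.92%, against 1.07% of all genes). The higher genes were Bmp1 and Adamts17 and the lower ones Tll1 and Adamts3, of which Adamts17 and Adamts3 were at or under the background ceiling on all 6 arrays. At the study's threshold of a 1.5-fold change with an unadjusted p of at most 0.05, 3 genes were higher (5.88%, against 3.28% of all genes), with Timp3 added. At the same threshold 3 were lower (5.88%, against 1.71% of all genes), with Mmp12 added. These counts use the deposited values of Adamts17 and Adamts3, although both genes lay under the ceiling. With probe sets under the ceiling on all arrays left out, Bmp1 and Timp3 remained higher and Tll1 and Mmp12 lower. At an unadjusted p under 0.05 alone, 9 of the 51 were higher and 6 lower, where 8.24% of all genes were higher and 7.59% lower.

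All 3 OVX arrays lay above the 3 Cont arrays for 7 of the genes (13.7%, against 10.7% of all genes) and below them for 8 (15.7%, against 10.6%). The median log2 change of the 51 genes was -0.02, the same as that of all genes, with 23 genes positive and 28 negative. Of the 51, 20 (39.2%) were at or under the ceiling on all arrays, 18 were above it on all arrays and 13 on some. The spread between mice of 1 group was somewhat wider for these genes than for all genes, with a median pooled SD of 0.23 against 0.19, and it was widest for Tll1 at 0.75.

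**Figure D1:**
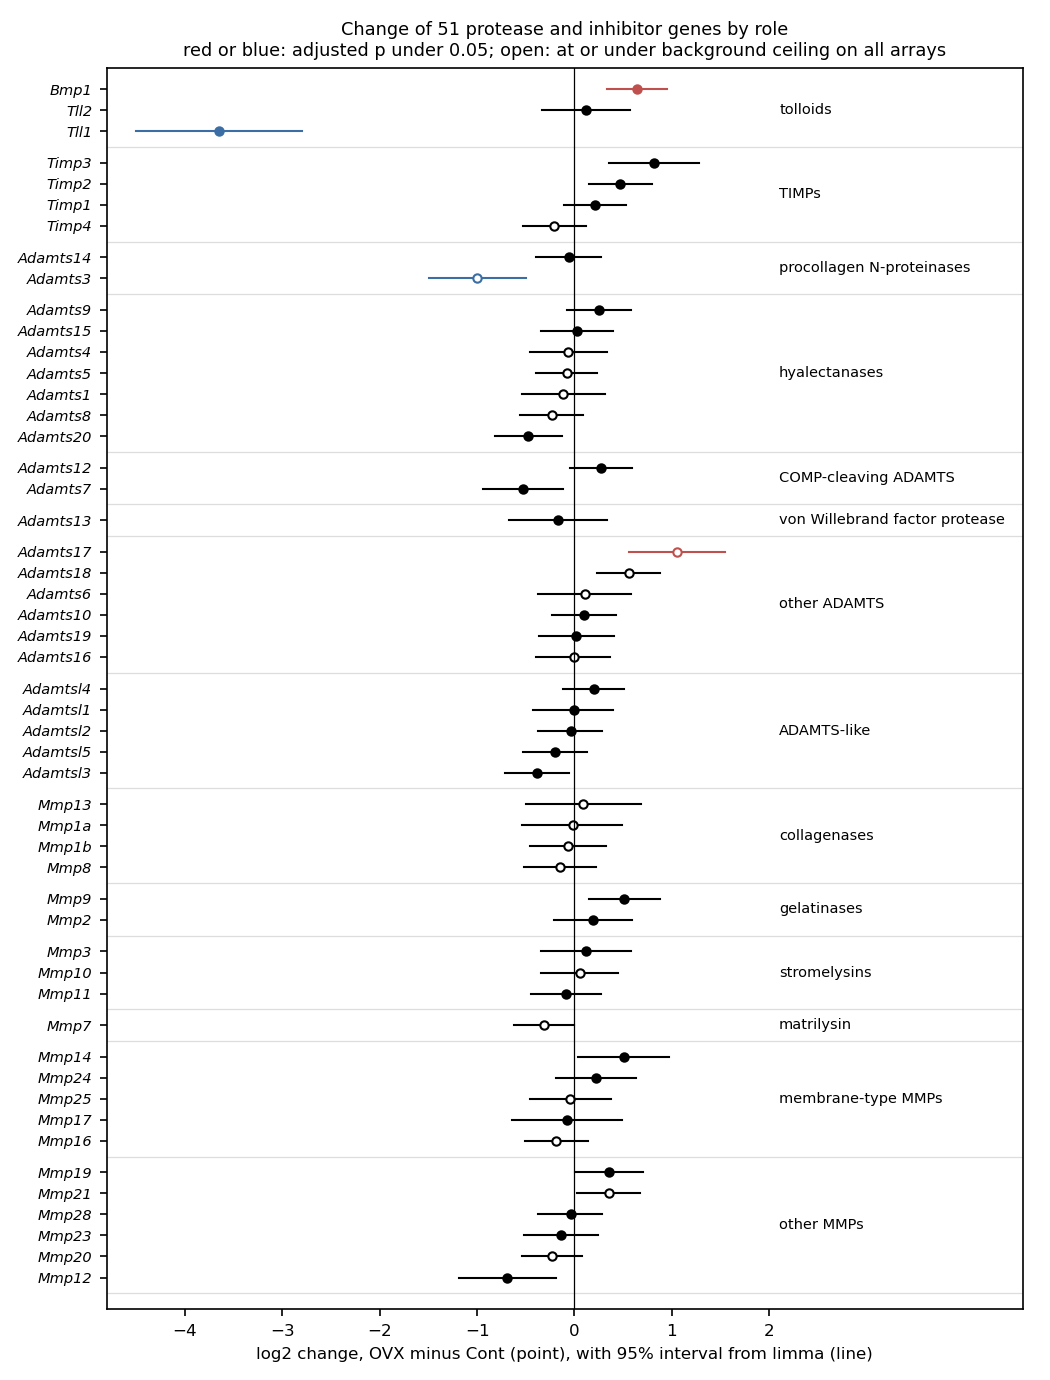
Log2 change of the 51 genes in OVX against Cont glands (points), grouped by role, with the 95% interval from limma over 3 arrays per group (lines). Tll1 stands at -3.65 with an interval from -4.50 to -2.80, and every other gene lies between -1.0 and 1.05. Open points mark the 20 genes at or under the background ceiling on all 6 arrays.

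Tolloids are the enzymes that turn procollagens into fibril-forming collagen, and they also cleave chordin, a secreted antagonist of bone morphogenetic proteins. Tll1, which in mice is needed for the septation of the heart, read 8.35, 8.01 and 6.97 on the log2 scale in the 3 Cont glands and 4.40, 3.25 and 4.73 in the 3 OVX glands. The lowest Cont gland was above the highest OVX gland, and 2 of the 3 OVX values were at or under the background ceiling. The mean fell from 7.78 ± 0.72 to 4.12 ± 0.77 (SD, n = 3 each), a log2 change of -3.65 (SE 0.39, limma adjusted p = 0.000302). This is 12.6-fold on the deposited values and 8.45-fold with the dim OVX arrays set at their ceiling. With each array left out in turn, the adjusted p of Tll1 stayed under the threshold in all 6 fits and was highest, at 0.00311, without Cont replicate 2. It was 0.138 by the methods' t-test, which estimates the spread from each gene alone, and 0.262 by its unequal-variance form. The acinar markers that fell moved in the same direction, and their part in the fall of Tll1 was not tested.

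Bmp1, the founding procollagen C-proteinase, moved the other way. It read 5.27, 5.37 and 5.60 in Cont and 6.13, 6.0 and 6.02 in OVX. All 6 values were above the ceiling and the groups did not overlap. The mean rose from 5.41 ± 0.17 to 6.05 ± 0.07, a log2 change of 0.64 (SE 0.14) or 1.56-fold (adjusted p = 0.0307). The call was lost in 5 of the 6 fits with 1 array left out, with adjusted p between 0.0755 and 0.133 in those, the last without OVX replicate 1. The adjusted p of Bmp1 was 0.140 by the methods' t-test and 0.338 by its unequal-variance form. Sry, which a female lacks, read 5.41 to 5.82 in Cont and 4.83 to 5.01 in OVX. Its change of -0.75 also passed (limma adjusted p = 0.0197), so a call at this level does not by itself show a change in expression.

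Tll2, which releases myostatin from its latent complex, read 4.66, 4.24 and 4.95 in Cont and 4.54, 4.59 and 5.08 in OVX. Its groups overlapped, 2 arrays of each group were at or under the ceiling, and the difference was 0.12 with a 95% interval from -0.33 to 0.57 (adjusted p = 0.832).

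The change of Tll1 was set against that of Bmp1 by an exact permutation test over the 6 arrays of their difference within each array, which compares changes and not levels. The log2 change of Tll1 was lower than that of Bmp1 by a difference of -4.29 on the deposited values. Because 2 OVX values of Tll1 were at or under the ceiling, the size depends on the floor, and it was -3.72 with dim values set at their ceiling. Both gave a two-sided exact p of 0.1, the smallest that 3 against 3 arrays allow. The groups of Tll1 were already known to lie further apart than Bmp1 ranged over all arrays. This p was therefore fixed beforehand and adds no support. The same difference is not given for Tll2, whose values were largely at or under the ceiling. The pair was chosen with the fall of Tll1 known.

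**Figure D2:**
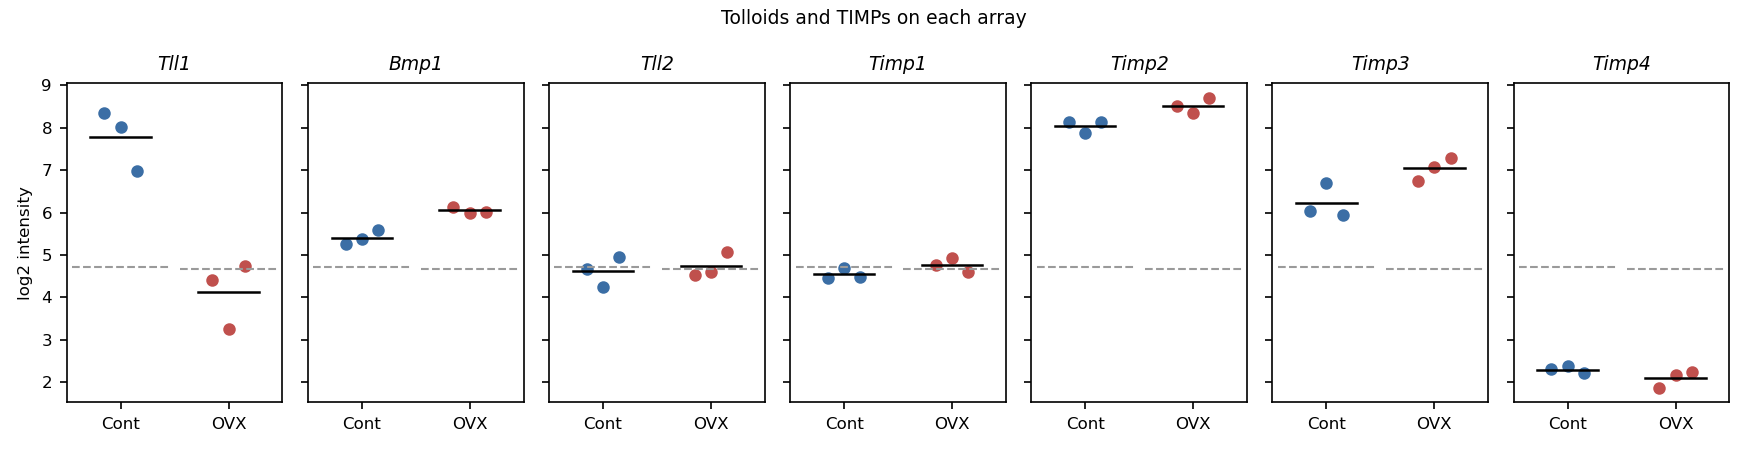
Log2 intensity of the 3 tolloids and 4 TIMPs on each array (points, 3 Cont and 3 OVX), with the group mean (bar) and the mean background ceiling of the group (dashed line). Tll1 drops from 6.97 or more to values near or under the ceiling, while Bmp1, Timp2 and Timp3 are higher on every OVX array than on any Cont array.

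The substrates of tolloids and the proteins that enhance them were taken as a list of 25 genes, of which 23 were measured. In OVX glands 5 of these rose and none fell at an adjusted p under 0.05, where 2.57% of all genes rose and 1.07% fell. The median log2 change was 0.19. At an unadjusted p under 0.05, 7 were higher and 1 was lower (8.24% and 7.59% of all genes). Bgn, which encodes the small proteoglycan biglycan that tolloids mature, read 7.38, 7.11 and 7.45 in Cont and 8.39, 8.20 and 8.69 in OVX. Every OVX gland was above every Cont gland, with a log2 change of 1.12 (SE 0.16, adjusted p = 0.00284). Col3a1, the chain of type III collagen, read 5.96, 4.11 and 5.66 in Cont and 7.58, 7.37 and 7.69 in OVX. The Cont glands varied far more than the OVX glands, 1 Cont value lay under the ceiling, and the change was 2.30 (SE 0.37, adjusted p = 0.00502).

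Col1a2, a chain of type I collagen, read 6.52, 6.08 and 6.14 in Cont and 7.12, 7.34 and 7.17 in OVX, a change of 0.96 (SE 0.16, adjusted p = 0.00519). Lama3, the laminin chain of epithelial basement membrane that tolloids trim, read 6.39, 6.38 and 6.30 in Cont and 7.02, 6.98 and 7.04 in OVX, a change of 0.66 (SE 0.13, adjusted p = 0.0149). For both genes the groups were apart and all values were above the ceiling. Col1a1, the other chain of type I collagen, changed by 0.65 (SE 0.15, adjusted p = 0.0388).

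The rest of the list did not pass the test. Pcolce, the enhancer of procollagen C-proteinases, differed by 0.23 (adjusted p = 0.424). Chrd, which encodes chordin, differed by 0.25 (adjusted p = 0.460), and Lox, the collagen crosslinking enzyme that tolloids activate, was at or under the ceiling on all arrays. Col5a1 (0.65, adjusted p = 0.0668) and Loxl1 (0.70, adjusted p = 0.138) were higher at an unadjusted p under 0.05 only. For Col5a1 3 Cont arrays and 1 OVX array were at or under the ceiling, and for Loxl1 2 Cont arrays and 1 OVX array. Igfbp3, an IGF-binding protein, was the single gene lower at an unadjusted p, and read 6.0, 5.89 and 5.84 in Cont and 5.16, 5.50 and 5.59 in OVX (-0.50, adjusted p = 0.114). The genes of this list that passed are in large part collagens, and Col1a1, Col1a2 and Col3a1 also stand in the fibroblast list, whose summed linear intensity was 1300 to 1430 in Cont and 1890 to 2150 in OVX. Lama3 stands in the list of basal duct cells, with sums of 663 to 722 and 1030 to 1180. Each sum includes the genes named here, so it is not a separate measure of the cells. Beyond the collagens, Dcn alone of the 8 fibroblast genes passed the adjusted p (0.60, limma adjusted p = 0.0340). Dpt (-0.44) and Dpp4 (-0.53) of the fibroblast list were lower without passing. The part of these cell markers in the results for tolloid substrates and for Bmp1 was not tested.

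**Figure D3:**
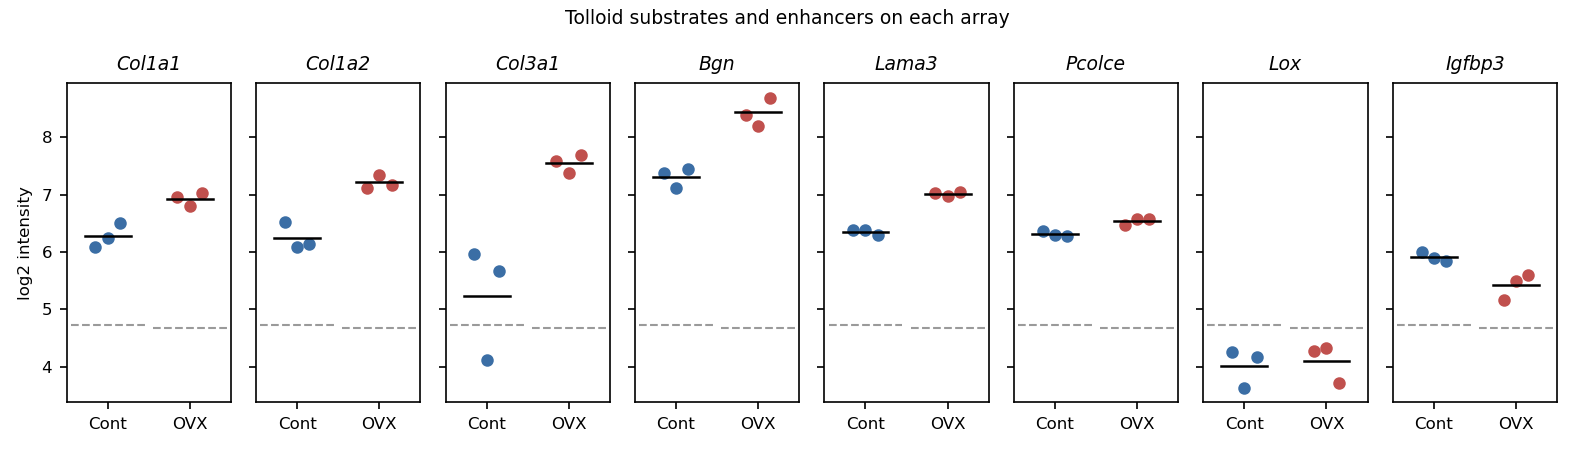
Log2 intensity of 8 tolloid substrates and enhancers on each array (points), with group means (bars) and the mean background ceiling of each group (dashed lines). Col1a1, Col1a2, Col3a1, Bgn and Lama3 are the 5 genes that rose, Pcolce and Igfbp3 did not pass the test, and Lox lies under the ceiling in both groups.

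Of the 4 TIMPs none passed the adjusted p, and 2 were higher at an unadjusted p under 0.05, a threshold that 8.24% of all genes reached in that direction. Timp3, the inhibitor that stays bound to the matrix and also blocks ADAM and ADAMTS proteases, read 6.04, 6.69 and 5.94 in Cont and 6.75, 7.08 and 7.29 in OVX. The groups were narrowly apart, since the highest Cont gland was just under the lowest OVX gland. The mean was 6.22 ± 0.41 in Cont and 7.04 ± 0.27 in OVX, a difference of 0.82 (SE 0.21, 1.76-fold, adjusted p = 0.0634). The adjusted p of Timp3 was under 0.05 in 4 of 17 alternatives, among them without the dimmest 30% (0.0352) and without Cont replicate 2 (0.0172). The latter was the 1 fit with an array left out in which Timp3 passed, and the highest of these was 0.209, without OVX replicate 3. The adjusted p of Timp3 was 0.354 by the methods' t-test and 0.470 by its unequal-variance form.

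Timp2, which inhibits MMPs and also helps activate proMMP2 at the cell surface, read 8.13, 7.88 and 8.14 in Cont and 8.51, 8.34 and 8.71 in OVX. The groups did not overlap, and the difference was 0.47 (SE 0.15, adjusted p = 0.129). Timp1, a soluble inhibitor induced in many inflamed tissues, read 4.47, 4.70 and 4.48 in Cont and 4.77, 4.92 and 4.59 in OVX, with all Cont arrays and 1 OVX array at or under the ceiling and a difference of 0.21 (95% interval -0.11 to 0.53, adjusted p = 0.540). Timp4 was at or under the ceiling on all 6 arrays, with values from 1.87 to 2.39.

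Other inhibitors and clearance receptors were listed as 10 genes. None passed the adjusted p, at which 2.57% of all genes were higher and 1.07% lower. At an unadjusted p under 0.05, 4 were higher and none was lower (8.24% and 7.59% of all genes), and the median change was 0.13. Cst3, the cysteine protease inhibitor cystatin C, differed by 0.58 (adjusted p = 0.0819). Lrp1, an endocytic receptor that clears MMP and TIMP complexes, differed by 0.42 (adjusted p = 0.205). Reck, a membrane-anchored MMP inhibitor, was at or under the ceiling on all arrays.

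Among the ADAMTS proteases, 1 of 18 was higher and 1 lower at the adjusted p (2.57% and 1.07% of all genes), and both were dim. Adamts17, for which mutations in human are known from short stature with eye defects, read 3.47, 2.56 and 2.97 in Cont and 4.09, 3.77 and 4.30 in OVX. Adamts3, the procollagen N-proteinase that also activates VEGFC, read 4.14, 3.34 and 4.32 in Cont and 2.78, 2.95 and 3.06 in OVX. The groups of neither gene overlapped, yet no array of either group rose above the ceiling, so no fold is given. The limma adjusted p was 0.0244 for Adamts17 and 0.0341 for Adamts3. With 1 array left out, Adamts17 passed in 2 of 6 fits (highest adjusted p 0.105, without OVX replicate 3) and Adamts3 in 1 of 6 (0.132, without OVX replicate 1).

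Adamts14, the other procollagen N-proteinase measured, read 5.67, 5.85 and 6.07 in Cont and 5.70, 5.98 and 5.73 in OVX. Its groups overlapped, with a difference of -0.06 and a 95% interval from -0.40 to 0.27 (adjusted p = 0.887). Adamts18 lay under the ceiling on all arrays, with 3.28 to 3.50 in Cont and 3.75 to 4.12 in OVX (adjusted p = 0.0671). Adamts6 and Adamts16 were also at or under the ceiling throughout, and Adamts19 lay between 4.70 and 5.39 with a difference of 0.02.

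Of the 7 hyalectanases, which cut aggrecan and versican, none passed limma's adjusted p. At an unadjusted p under 0.05, 1 was lower (7.59% of all genes). Adamts1, Adamts4, Adamts5 and Adamts8 were at or under the ceiling on all arrays. Adamts20, known in mouse from the belted coat pattern, read 4.79, 4.88 and 5.30 in Cont and 4.50, 4.54 and 4.50 in OVX. All Cont values were above the ceiling and all OVX values under it, and the group means were at least 1.25-fold apart. The difference did not pass (log2 change -0.48, limma adjusted p = 0.148), and the change was -0.32 without Cont replicate 3. Adamts9, which cleaves versican, was above the ceiling on all arrays and differed by 0.25 (adjusted p = 0.470), and Adamts15, of the same group, by 0.03. Of 14 measured substrates and partners of these enzymes none passed either, and the median change was 0.03. At an unadjusted p under 0.05, 2 were higher (8.24% of all genes). Nid1, the basement membrane linker nidogen, differed by 0.66 (adjusted p = 0.0685) and Vcan, versican, by 0.49 (adjusted p = 0.0727), both with every OVX gland above every Cont gland.

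Adamts7, a protease of cartilage oligomeric matrix protein, read 5.31, 5.48 and 5.45 in Cont and 5.09, 4.43 and 5.13 in OVX. OVX was below Cont on every array, but OVX replicate 2 stood apart from the other 2, and the difference of -0.53 did not pass (adjusted p = 0.183). Adamts12, with the same substrate, read 6.01, 6.22 and 6.03 in Cont and 6.50, 6.43 and 6.15 in OVX, with overlap (0.27, adjusted p = 0.414). Adamts13, which trims von Willebrand factor, was at or under the ceiling on 5 of 6 arrays, with a difference of -0.17. Adamts10, a protease linked to fibrillin microfibrils, lay between 6.34 and 6.80 on all arrays, with a difference of 0.10.

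The 5 ADAMTS-like proteins lack a protease domain and bind the matrix. All 5 were above the ceiling on every array and none passed limma's adjusted p, with 1 lower at an unadjusted p under 0.05 (7.59% of all genes). Adamtsl4, which binds fibrillin, read 7.96, 7.59 and 7.78 in Cont and 8.06, 7.95 and 7.91 in OVX (0.20, adjusted p = 0.566). Adamtsl3 read 5.74, 5.51 and 5.70 in Cont and 5.39, 5.35 and 5.04 in OVX. It was the one ADAMTS-like gene whose groups did not overlap (-0.38, adjusted p = 0.220). The differences of Adamtsl1, Adamtsl2 and Adamtsl5 lay between -0.20 and -0.01.

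None of the 21 MMPs passed the adjusted p. At an unadjusted p under 0.05, 4 were higher and 1 was lower (8.24% and 7.59% of all genes), the median change was -0.04, and 10 were at or under the ceiling on all arrays while 5 were above it on all. Mmp2, the gelatinase of stromal cells, read 6.44, 6.15 and 6.59 in Cont and 6.74, 6.23 and 6.80 in OVX. The groups overlapped, and the difference was 0.19 with a 95% interval from -0.21 to 0.59 (adjusted p = 0.667). Mmp9, the gelatinase that neutrophils carry, read 4.27, 4.24 and 3.85 in Cont and 4.67, 4.41 and 4.81 in OVX. OVX was above Cont without overlap, all Cont arrays and 2 OVX arrays were at or under the ceiling, and the adjusted p was 0.139. Of 7 measured neutrophil markers none passed the adjusted p (1 higher and 2 lower at an unadjusted p), their summed linear intensity was 119 to 145 in Cont and 117 to 130 in OVX, and S100a8, Retnlg and Ngp were at or under the ceiling.

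Mmp14, the membrane-bound collagenase that activates proMMP2, read 4.10, 4.72 and 4.58 in Cont and 5.32, 5.01 and 4.59 in OVX. All Cont values were at or under the ceiling, the groups overlapped, and the difference did not pass (adjusted p = 0.270). Mmp24, also membrane-bound, differed by 0.22 (adjusted p = 0.619). Mmp19, a basement membrane protease, was above the ceiling on all arrays and differed by 0.35 (adjusted p = 0.305), and Mmp23 and Mmp11, which are activated inside the cell by furin-like enzymes, differed by -0.14 and -0.09. Mmp17 and Mmp28 differed by -0.08 and -0.04, and Mmp16, Mmp21 and Mmp25 were at or under the ceiling on all arrays.

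Mmp12, the elastase of macrophages, read 4.30, 5.21 and 4.39 in Cont and 4.16, 3.94 and 3.74 in OVX. Cont replicate 2 was the only array above the ceiling, and the difference of -0.69 (adjusted p = 0.148) was -0.40 without it. The 7 macrophage markers measured had summed linear intensities of 507 to 686 in Cont and 563 to 776 in OVX. None passed the adjusted p, and 1 was higher at an unadjusted p under 0.05 (8.24% of all genes).

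Mmp12 belongs to a run on chromosome 9 that holds 9 of the 51 genes, all of them MMPs. In chromosome order they are Mmp13, Mmp12, Mmp1b, Mmp3, Mmp1a, Mmp10, Mmp8, Mmp20 and Mmp7. Between Mmp8 and Mmp20 lies 1 further protein-coding gene, which is not one of the 51 and was not analysed here. The run holds all 4 measured interstitial collagenases and the 7 genes whose AP-1 stretches are printed above. In this gland 7 of the 9 were at or under the background ceiling on every array, and the values ran from 2.29 to 5.25. Their changes lay between -0.69 and 0.12 with a median of -0.07, and none of the 9 passed the adjusted p, with Mmp12 alone under 0.05 before adjustment. Mmp7, matrilysin, read 3.30 to 3.58 in Cont and 2.98 to 3.18 in OVX (adjusted p = 0.318), without overlap but wholly under the ceiling. Mmp1a and Mmp1b are near copies of each other, so their probes may share signal.

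**Figure D4:**
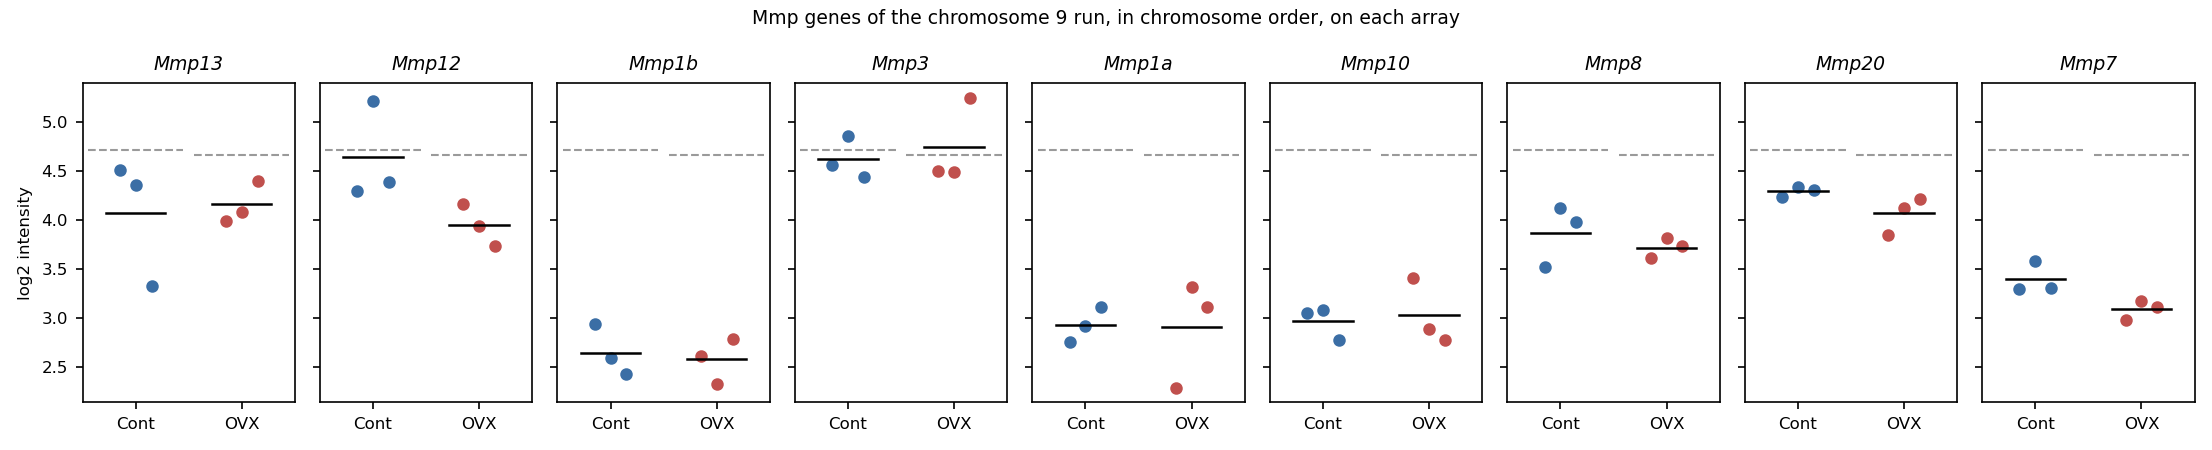
Log2 intensity of the 9 MMP genes of the chromosome 9 run on each array (points), in chromosome order, with group means (bars) and the mean background ceiling of each group (dashed lines). Points above the ceiling are seen for Mmp12 and Mmp3 alone, and the groups of most genes overlap.

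Proteins that activate proMMPs or gather them at the cell surface were listed as 20 genes, of which 18 were measured. A single gene passed the adjusted p and was lower (1.07% of all genes), and the median change was -0.04. Cldn1, a tight junction protein that also promotes activation of proMMP2 by membrane-type MMPs, read 6.92, 6.76 and 6.88 in Cont and 6.18, 5.72 and 5.92 in OVX. Every OVX gland was below every Cont gland, with a log2 change of -0.91 (SE 0.15, adjusted p = 0.00616). Furin, a convertase of membrane-type MMPs, differed by 0.15 (adjusted p = 0.629), and Plau, the urokinase that activates plasminogen, by 0.40 (adjusted p = 0.321). None of 12 ADAM proteases, the membrane-anchored relatives of ADAMTS, passed the adjusted p, and their median change was 0.07. At an unadjusted p under 0.05, 1 was lower (7.59% of all genes).

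**Figure D5:**
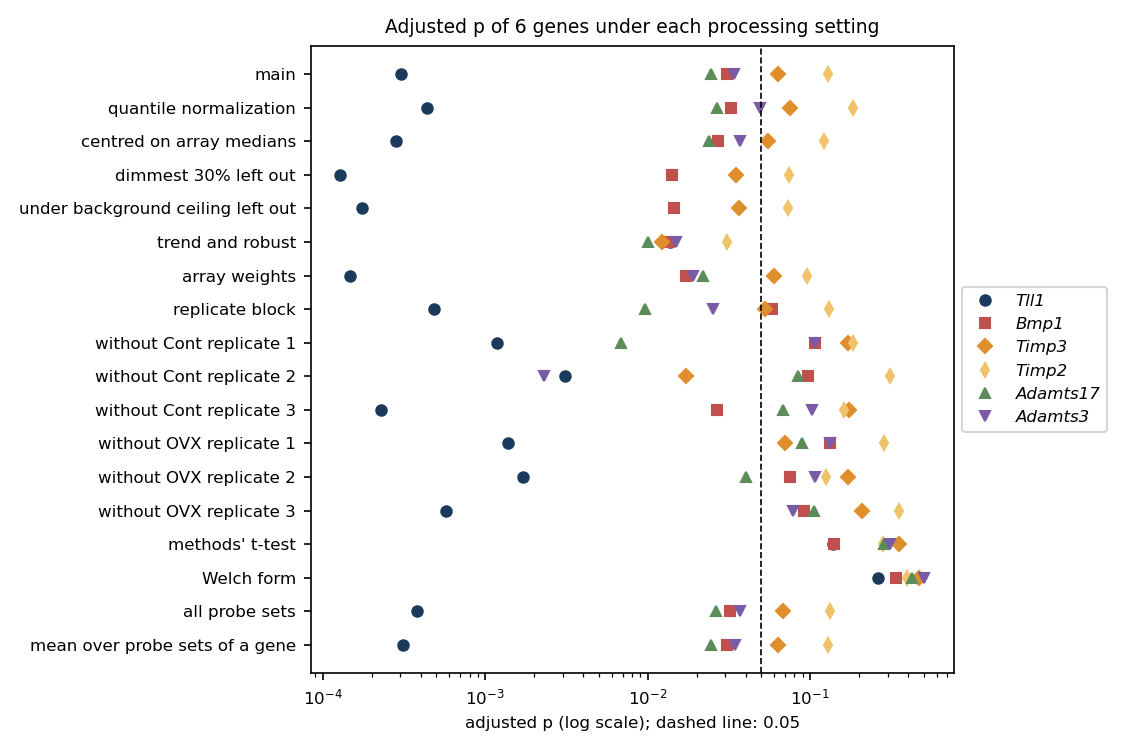
Adjusted p (log axis) of Tll1, Bmp1, Timp3, Timp2, Adamts17 and Adamts3 under the reported processing and 17 alternatives, with the threshold of 0.05 as a dashed line. Tll1 lies left of the line in all settings but the 2 plain tests without shared variances (the methods' t-test and its unequal-variance form), and the other genes cross it between settings. Adamts17 and Adamts3 have no point where dim probe sets were left out.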

How the data were processed

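Clariom S mouse arrays of 3 Cont and 3 OVX submandibular glands were analysed, grouped by the sample labels. SST-RMA was run by the authors on all 6 arrays at once, and the values they deposited are log2 intensity summaries of 22206 probe sets. Affymetrix Power Tools and RMA are named in the submitters' processing notes. Release numbers were not given in the sources used here. A log2 scale was inferred from the range. Background correction by RMA is known to compress differences of dim probe sets. Whether differences are compressed in these SST-RMA values was not tested. Precision is limited by the number of arrays.

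Probe sets with 1 symbol in the platform annotation (19572) were fitted in R 4.3.3 with limma 3.58.1 (lmFit, eBayes, no covariate, Benjamini-Hochberg), and the probe set of highest mean was kept per gene. All 51 genes were matched to RefSeq gene positions by Entrez gene identifier, and their symbols were the same there. A background ceiling was set per array from olfactory receptor genes. A group wholly at or under it has only a bound: "at least N-fold" compares the brighter group's mean with the mean of, per array, the higher of the ceiling and the gene's own value. Levels of different genes were compared only to choose which to name. Simulated data were used to test the fit. Alternatives were quantile normalization, centring, filters on dim probe sets, trend and robust options, array weights, a replicate block, each array left out, the methods' t-test (equal-variance form) and its Welch form, all probe sets, the mean over probe sets, and a fold of 2.

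The genes, roles and lists were chosen with earlier results of these data known. Named are all tolloids and TIMPs, genes past either threshold, per role the gene of highest level and the one of largest change, and the 4 smallest p among passing genes of each further list. Genes named beyond this rule, such as Col1a1, Pcolce, Lox, Igfbp3, Nid1, Vcan and Mmp19, were chosen after their values were seen. Nothing in the labels says whether mice shared a cage or surgery day. Mmp15, Mmp27 and Adamts2 were not analysed here.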

Additional observations from a re-analysis of the deposited data

How the results depend on the processing

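Over 17 alternatives (15 for genes that the filters on dim probe sets left out), the 31 named genes gave values of which 473 kept direction and side of the threshold, 23 lost the threshold, 6 gained it and 9 changed sign. All 9 sign changes came with 1 array left out and concerned genes that had not passed. Their log2 changes then ranged from -0.03 to 0.17 (Adamts10), -0.45 to 0.06 (Adamts13), -0.16 to 0.04 (Adamts14), -0.17 to 0.06 (Mmp11), -0.28 to 0.31 (Mmp13), -0.13 to 0.25 (Mmp3) and -0.07 to 0.29 (Tll2). Genes past the adjusted p, 709 in all, numbered 1104 with trend and robust options, 79 by the methods' t-test, 7 by its Welch form and 382 to 561 with 1 array left out. Of the 51 genes, 2 were higher. This became 4 with trend and robust options (Timp2 and Timp3 added), 1 with the replicate block, 0 by the methods' t-test and by the Welch form, and 0 to 1 with 1 array left out. The 2 lower genes became 1 without the dimmest 30%, 1 without probe sets under the ceiling (Adamts3 was then not tested), 0 by the methods' t-test and by the Welch form, and 1 to 2 with 1 array left out. With its unadjusted p at the study's threshold, the methods' t-test gave 3 higher and 2 lower genes and the Welch form 2 and 1. By limma, 3 higher genes became 1 at a 2-fold change and 3 to 5 with 1 array left out, and 3 lower genes became 1 at a 2-fold change and 2 to 4 with 1 array left out. The 7 genes without overlap above Cont became 7 to 12, and the 8 below became 9 to 12, since fewer arrays overlap less. The median change of the 51 genes was 0.01 without the dimmest 30%, 0.03 without probe sets under the ceiling and -0.03 to 0.02 with 1 array left out. The change of Tll1 less that of Bmp1, -4.29, was -3.72 with dim values at their ceiling, a setting chosen after seeing the data. The cause was not tested unless named.

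Equal replicate numbers did not pair the samples (correlations of deviations 0.07, 0.01 and -0.04, against -0.08 to 0.06 for other numbers). With the replicate block the adjusted p was 0.000482 for Tll1, 0.0578 for Bmp1, 0.00963 for Adamts17 and 0.0253 for Adamts3. With 3 arrays per group and no detection calls, values near the ceiling limit what can be said of the 20 dim genes.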
